A study of Homo sapiens with 6 samples.

Results

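The genes described here encode the subunits of the proteasome, the protease that degrades ubiquitin-tagged proteins. They are the rows of the deposited table whose names are PSMA, PSMB, PSMC or PSMD followed by a number, 39 of 20024 listed genes. The 19 PSMA and PSMB genes form the core and the 20 PSMC and PSMD genes the cap. RNA bound to the protein PTBP1 was pulled down with an antibody and sequenced (RIP-seq). There were 3 libraries from AC16 cells whose genotype is DCRT-KO, in which the long noncoding RNA DCRT is knocked out, and 3 from wild-type (WT) AC16 cells. Both groups carry the PTBP1 antibody, and the labels name no drug, time point or other allele. AC16 is labelled as a heart cell line of cardiomyocyte type. The growth protocol instead presents the cells as a supplier's product, so it is not known here whether they are the established line. The labels do not say how many clones the knockout rests on, or whether the libraries of a group are separate cultures. The p-values therefore speak only of the spread among these libraries, which may be technical.

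The proteasome consists of a barrel of stacked rings, with the PSMA proteins in the outer alpha rings and the PSMB proteins in the inner beta rings, whose active sites face a closed chamber. The cap sits on the end of the barrel. Its base holds the PSMC ATPases, which unfold substrates and open the gate of the alpha ring, and its lid holds the enzyme that removes ubiquitin chains. The subunits are needed in fixed proportions and their genes share transcription factors, among them NFE2L1, which raises them when proteasome activity is short. In heart muscle the proteasome turns over damaged contractile proteins. PTBP1 binds CU-rich stretches of transcripts and acts in splicing, stability and translation.

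Whole reads recovered from the values (FPKM, fragment counts relative to gene length and library size) totalled 373354 to 1380722 in the DCRT-KO libraries and 1798841 to 2589080 in the WT libraries, so every DCRT-KO library was shallower than every WT library and depth cannot be told apart from genotype. DCRT-KO library 3, the deepest of its group, correlated with the WT libraries at 0.919 to 0.933 and with the other DCRT-KO libraries at 0.895 and 0.900 (Pearson, log2 values across genes). At equal depth it correlated with the WT libraries at 0.862 to 0.873 and with the other DCRT-KO libraries at 0.862 and 0.875. No listed gene is named DCRT, so the knockout was not checked in these libraries. Libraries of input RNA or a control antibody were not analysed here, so a difference in RIP level can be one of transcript abundance, of PTBP1 binding or of unbound RNA, and these cannot be told apart. In bulk samples fewer cells of a type and less RNA per cell cannot be told apart either. Of 10 cardiomyocyte markers, 7 were at 0 in all 6 libraries, including TNNT2, TNNI3, MYH6 and MYH7, and the summed level of the list was 1.59 to 3.43 FPKM in DCRT-KO and 4.23 to 5.21 FPKM in WT. TTN, which encodes the sarcomere protein titin, made up most of that sum, at 2.41 ± 0.907 FPKM in DCRT-KO and 4.36 ± 1.04 FPKM in WT (SD, n = 3 each; limma adjusted p = 0.213, voom adjusted p = 0.023). The 7 markers at 0 do not bear out the cardiomyocyte label. A level of 0 in RIP does not show, however, that the cells lack the transcript. Fibroblast markers (3 of 7 at 0 in all libraries) summed to 0 to 0.325 FPKM in DCRT-KO and 1.09 to 1.25 FPKM in WT. Endothelial markers (2 of 5 at 0) summed to 1.38 to 2.69 FPKM in DCRT-KO and 2.01 to 3.03 FPKM in WT, and blood and immune markers (3 of 5 at 0) to at most 0.335 FPKM in DCRT-KO and 0.586 FPKM in WT. Epithelial markers (2 of 5 at 0) summed to 93.8 to 227 FPKM in DCRT-KO and 58.5 to 67.0 FPKM in WT, nearly all of it the keratins KRT18 and KRT8. KRT18 averaged 143 ± 60.2 FPKM in DCRT-KO and 48.7 ± 2.27 FPKM in WT (limma adjusted p = 0.0353, voom adjusted p = 0.00068). Its limma adjusted p was 0.0698 at equal depth and up to 0.159 with a library left out. KRT8 was not called (limma adjusted p = 0.428). The part of these differences in the results below was not tested.

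Pyrimidine stretches are the kind of sequence PTBP1 binds, so the longest uninterrupted run of C and T was located in 1 transcript per gene. The windows of 30 bases below, in GRCh38 from GENCODE 29 transcripts and written as DNA, are those of both genes called higher in DCRT-KO (PSMC3 and PSMD8), of both called lower when DCRT-KO library 3 is left out (PSMD6 and PSMD12), and of PSMD11, which has the longest run of the members tested. Without that library 7.17% of all tested genes were called lower and 6.18% higher. PSMB5, PSMB6, PSMD2, PSMD3 and PSMD4 were then also called higher, and their windows are not shown. Capitals mark the run.
PSMC3: gacagacgtaCTTCCTTCCTgtgattgggt
PSMD8: gggcctcaaCCTCCTCTTCCTgctgtccca
PSMD6: ggcagctgaaCTCTTCCTTgacactgtttc
PSMD12: ttgCTCTTCTTCCTCTCCCCTTTCTTTata
PSMD11: caTTCCTCTCCTCTCTTCTTTCCTCTCTgt
The PSMC3 window is coding sequence on the minus strand and spans an exon junction between chr11:47424467-47424611, and that of PSMD8 is coding sequence at chr19:38379279-38379308 on the plus strand. PSMD6 has its run of 9 bases in coding sequence, chr3:64018918-64018947, minus strand. The runs of PSMD12 (24 bases, chr17:67340063-67340092, minus strand) and PSMD11 (26 bases, chr17:32481579-32481608, plus strand) lie in 3′ UTRs. Over the 35 members tested the longest run had a median of 11 bases, against 14 bases over all tested genes, and the PTBP1-type word TCTT occurred at a median of 4.71 per kilobase in the members and 4.98 in all tested genes. The transcripts of the members tested were shorter, with a median of 1580 bases against 3233 bases over all tested genes. The part of length in the shorter runs was not tested. A run is a description of the sequence and not a binding site.

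Limma called transcripts of 2 cap subunits, PSMC3 and PSMD8, higher in DCRT-KO RIP, where 2.35% of all tested genes were called higher. No other member passed the test. Both calls were lost at equal depth (limma adjusted p = 0.059 and 0.0898, medians over draws). They were also lost when any WT library was left out. The mean RIP level was higher in DCRT-KO for the core and the cap as a whole, and by about the same ratio. This rested on the most abundant genes. Without PSMB1 and PSMD2 the core to cap ratio was 1.31 to 1.42 in DCRT-KO and 1.23 to 1.30 in WT. Within the core, 4 of 6 tested alpha ring genes had a log2 difference below 0. All tested members with a transcript GC content above the median of all tested genes had a higher mean in DCRT-KO. Of all tested genes above that GC content, 63.3% did. Within the cap the assembly chaperone PSMD10 and the lid subunits PSMD6 and PSMD12 had the lowest log2 differences, which did not pass the limma test.

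Of the 39 members, 35 had a mean of at least 1 FPKM over the 6 libraries and were tested with limma on log2(FPKM + 1), namely 15 core and all 20 cap genes. At a Benjamini-Hochberg adjusted p below 0.05 over all 11445 tested genes, 2 members were higher in DCRT-KO, where 2.35% of all tested genes were, and 0 were lower, where 1.2% were (3.55% in either direction). At an unadjusted p below 0.05, 11 members were higher and 3 lower, against 1403 higher and 1297 lower of all tested genes. With voom on the whole reads 6 members were higher (PSMA5, PSMA7, PSMB5, PSMC3, PSMD2 and PSMD8; background 5.85%) and 1 was lower (PSMD6; background 3.4%). Without DCRT-KO library 3, 7 members were higher (PSMB5, PSMB6, PSMC3, PSMD2, PSMD3, PSMD4 and PSMD8; background 6.18%) and 2 lower (PSMD6 and PSMD12; background 7.17%).

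PSMC3, an ATPase of the base whose tail docks into the alpha ring, had 32.4, 54.1 and 29.9 FPKM in DCRT-KO libraries 1, 2 and 3, against 11.9, 11.5 and 16.2 FPKM in WT libraries a, b and c. Every DCRT-KO value was above every WT value, with library 2 highest. The mean was 38.8 ± 13.3 FPKM in DCRT-KO and 13.2 ± 2.61 FPKM in WT (SD, n = 3 each), a ratio of 2.95, and the log2 difference (DCRT-KO minus WT on log2(FPKM + 1)) was 1.46 ± 0.25 SE with a limma adjusted p = 0.0264. Its reads numbered 39, 46 and 94 in DCRT-KO and 70, 47 and 76 in WT. Without DCRT-KO library 2 the log2 difference was 1.2 (limma adjusted p = 0.052), and without WT library a, b or c the limma adjusted p was 0.11, 0.126 and 0.0857. Leaving out a WT library left 0 to 8 genes called higher in the whole table.

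PSMD8, a lid subunit whose yeast counterpart joins late in lid assembly, had 32.3, 39.7 and 29.2 FPKM in DCRT-KO and 21.1, 16.8 and 16.5 FPKM in WT. The groups did not overlap. The mean was 33.7 ± 5.40 FPKM in DCRT-KO and 18.2 ± 2.58 FPKM in WT, a ratio of 1.85, with a log2 difference of 0.85 ± 0.18 SE and a limma adjusted p = 0.0416. Without DCRT-KO library 1 or 2 its limma adjusted p was 0.0654 and 0.0998, and without WT library a, b or c 0.117, 0.181 and 0.162. In the leave-one-out fits the log2 difference of PSMD8 stayed between 0.73 and 0.96.

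**Figure D1:**
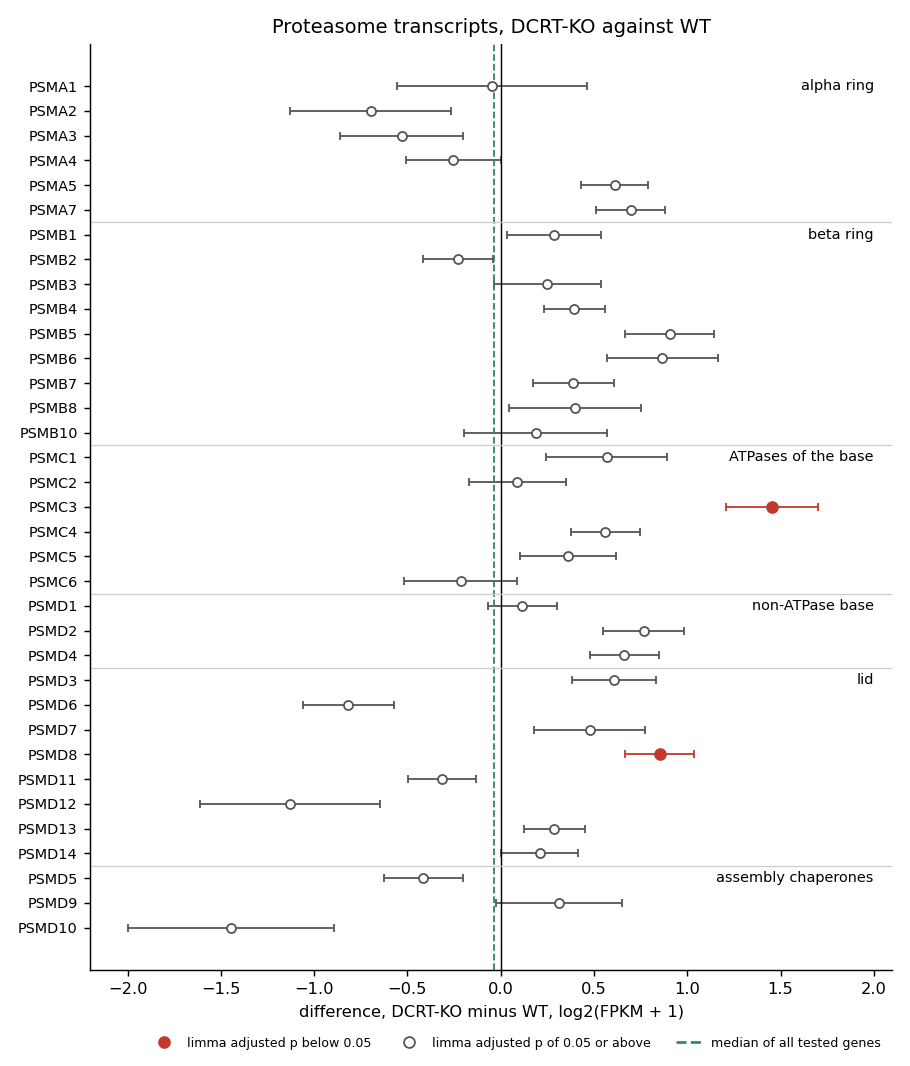
Log2 difference (DCRT-KO minus WT, log2(FPKM + 1), bars are SE) of the 35 tested proteasome genes by subunit class. PSMC3 at 1.46 and PSMD8 at 0.85 (filled) pass the limma threshold, and 24 of 35 points lie above 0, while the median of all tested genes (dashed) is -0.04.

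In direction, 24 of the 35 tested members had a higher mean log2 value in DCRT-KO, 10 of 15 core and 14 of 20 cap genes, where 47.2% of all tested genes did. The median log2 difference was 0.29 in the core and 0.30 in the cap, and -0.04 over all tested genes. No value of DCRT-KO overlapped those of WT in 10 members that were higher, 4 core and 6 cap genes (background 15.5%), and in 1 that was lower, PSMD6 (background 14.8%, and 30.3% in either direction). The higher ones were PSMA5, PSMA7, PSMB4, PSMB5, PSMC3, PSMC4, PSMD2, PSMD3, PSMD4 and PSMD8. Rescaling without mitochondrially encoded genes moved the median of all genes by -0.13 on the log2 scale. Relative to that median, the core stood at 0.30 and the cap at 0.35 under that scaling, with 22 of 35 members higher.

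By single libraries, 16 of 35 members lay above all WT values and 11 below all of them in DCRT-KO library 1 (528371 reads), where 34.3% of all tested genes were above and 42.4% below. Library 2, the shallowest with 373354 reads, had 20 members above and 8 below (all tested genes, 36.6% and 40.7%). Library 3 (1380722 reads) had 19 above and 1 below (all tested genes, 38.1% and 28.8%).

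Core and cap were then set against each other. The mean level per core gene was 24.6, 31.5 and 29.5 FPKM in DCRT-KO libraries 1, 2 and 3, against 23.2, 20.5 and 20.7 FPKM in WT libraries a, b and c. The mean per cap gene was 19.5, 25.3 and 19.9 FPKM in DCRT-KO and 16.6, 15.3 and 16.4 FPKM in WT. For core and cap alike each DCRT-KO library lay above each WT library. The core to cap ratio was 1.26, 1.24 and 1.48 in DCRT-KO and 1.402, 1.34 and 1.26 in WT, which overlap. It averaged 1.33 ± 0.133 in DCRT-KO and 1.33 ± 0.070 in WT, a difference of -0.006 that was smaller than the spread within either group. Without PSMB1 and PSMD2, the highest gene of each side, the ratio was 1.31, 1.42 and 1.35 in DCRT-KO and 1.24, 1.30 and 1.23 in WT, and the groups then did not overlap. All members together took 0.278%, 0.352% and 0.315% of the reads in DCRT-KO and 0.267%, 0.252% and 0.248% in WT.

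**Figure D2:**
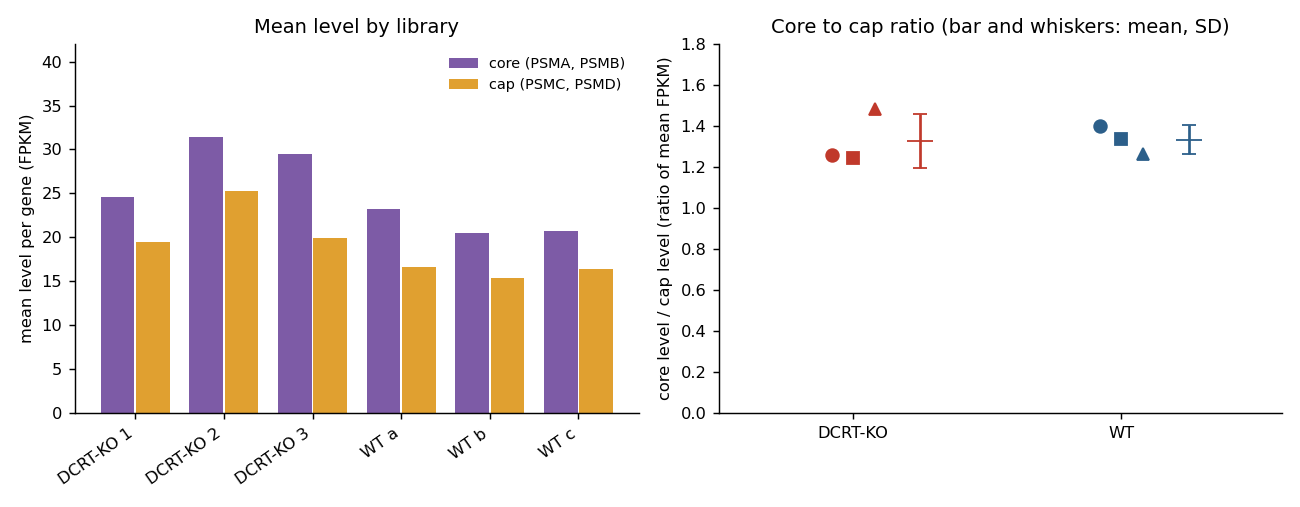
Left, mean FPKM per core gene and per cap gene in each library; right, the core to cap ratio of each library with the group mean and SD. Both means are higher in each DCRT-KO library than in any WT library, while the ratios of DCRT-KO (1.24 to 1.48) and WT (1.26 to 1.402) overlap.

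In the alpha ring, 2 of 6 tested genes had a higher mean log2 value in DCRT-KO and the median log2 difference was -0.15. Limma called 0 of them. At an unadjusted p below 0.05, 2 were higher (background 1403 of 11445), and voom called 2 higher (background 5.85%). PSMA7 was the most abundant, with 60.5, 88.7 and 88.9 FPKM in DCRT-KO and 47.4, 48.9 and 47.3 FPKM in WT (log2 difference 0.70 ± 0.18 SE, limma adjusted p = 0.0659, voom adjusted p = 0.0225). The WT libraries were within 2 FPKM of each other and all 3 DCRT-KO libraries lay above them. PSMA5 had 16.5, 18.7 and 20.2 FPKM in DCRT-KO and 13.1, 10.6 and 11.6 FPKM in WT, again without overlap (0.61 ± 0.18, limma adjusted p = 0.0847). PSMA2 was lowest of the ring by log2 difference (-0.70 ± 0.43, limma adjusted p = 0.353), with 1.07, 0.506 and 2.87 FPKM in DCRT-KO and 3.36, 3.99 and 1.37 FPKM in WT. It rested on 3, 1 and 21 reads in DCRT-KO and 46, 38 and 15 in WT. Its groups overlapped, as did those of PSMA3 (9.14, 19.8 and 25.2 FPKM in DCRT-KO and 27.5, 28.3 and 19.04 FPKM in WT), PSMA4 and PSMA1. PSMA3 and PSMA4 had log2 differences of -0.53 and -0.26. PSMA1 had 7, 1 and 35 reads in DCRT-KO and 21, 27 and 24 in WT. It averaged 4.17 FPKM in DCRT-KO and 3.51 FPKM in WT, but its log2 difference was -0.05 (0.52 with voom). Its sign turned in 7 of 17 alternatives, whose values ran from -0.55 without DCRT-KO library 3 to 0.58 without DCRT-KO library 2.

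PSMA6 was not tested. It had 0, 2 and 3 reads in DCRT-KO and 8, 9 and 14 in WT, for a pooled ratio of DCRT-KO over WT of 0.456 with a 95% exact interval of 0.138 to 1.18 that covers counting error only. The low levels of PSMA1, PSMA2 and PSMA6 are uncertain. Each shares exons on the same strand with a protein-coding gene model of GENCODE 29 (AC018523.2, AC010132.3 and AL121594.1, over 24.7%, 14.6% and 14.1% of their exon bases) that was listed at 0 in all 6 libraries. PSMB10 shares exons in the same way (AC040162.1, 34.8% of its exon bases, at most 0.0978 FPKM) as does PSMD9 (AC069503.2, 14.9%, listed at 0). How reads in shared exons were assigned is not known here, and their part in these levels was not tested. PSMA8, the testis form of an alpha subunit, had no read in any library.

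**Figure D3:**
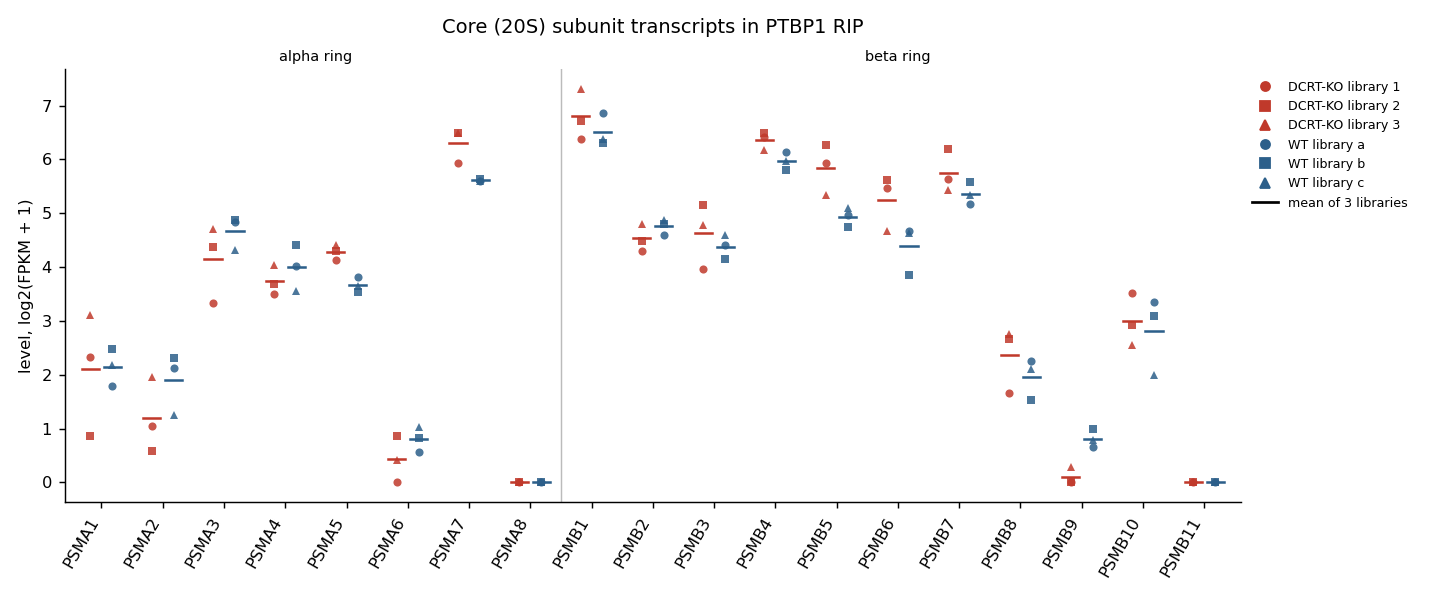
Level of each core gene, log2(FPKM + 1), in the 3 DCRT-KO and 3 WT libraries, with the mean of each group as a line. PSMB1, PSMA7 and PSMB4 are highest, PSMA5, PSMA7, PSMB4 and PSMB5 have all DCRT-KO points above the WT points, and PSMA8 and PSMB11 are at 0 throughout.

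In the beta ring 8 of 9 tested genes were higher in DCRT-KO, with a median log2 difference of 0.39, and limma called 0 of them. At an unadjusted p below 0.05, 3 were higher (background 1403 of 11445), and voom called 1 higher (background 5.85%). PSMB1, a structural subunit and the most abundant member, averaged 115 ± 38.6 FPKM in DCRT-KO and 92.0 ± 20.7 FPKM in WT, with overlapping libraries. PSMB4, another structural subunit, had 84.6, 89.5 and 71.2 FPKM in DCRT-KO and 69.4, 54.9 and 61.6 FPKM in WT. These did not overlap, although DCRT-KO library 3 came within 2 FPKM of WT library a (log2 difference 0.39 ± 0.16 SE, limma adjusted p = 0.187). The remaining structural subunits overlapped between the groups, PSMB2 at a log2 difference of -0.23, the only one of the ring below 0, and PSMB3 at 0.25 (-0.01 without DCRT-KO library 2).

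Of the catalytic subunits, PSMB5, which carries the chymotrypsin-like activity, had 60.05, 75.9 and 39.4 FPKM in DCRT-KO and 30.4, 25.8 and 33.2 FPKM in WT. The groups did not overlap and DCRT-KO library 3 lay closest to WT (log2 difference 0.91 ± 0.24 SE, limma adjusted p = 0.0655, and 0.0105 without that library). PSMB6, with the caspase-like activity, had 43.2, 48.1 and 24.5 FPKM in DCRT-KO and 24.6, 13.4 and 23.8 FPKM in WT. Here DCRT-KO library 3 lay just below the highest WT value (0.87 ± 0.30, limma adjusted p = 0.121, and 0.0297 without library 3). PSMB7, with the trypsin-like activity, had 48.7, 71.9 and 42.1 FPKM in DCRT-KO and 34.99, 46.6 and 39.6 FPKM in WT, with overlap (0.39 ± 0.22, limma adjusted p = 0.313).

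Interferon exchanges the catalytic subunits for PSMB8, PSMB9 and PSMB10, which form the immunoproteasome. PSMB8 made up 7.62 ± 4.75% of the summed PSMB5 and PSMB8 FPKM in DCRT-KO and 8.97 ± 2.05% in WT (SD, n = 3 each). PSMB10 made up 12.2 ± 4.90% of the PSMB7 pair in DCRT-KO and 13.9 ± 6.96% in WT. Both shares overlapped between the groups, and PSMB8 and PSMB10 themselves stood at log2 differences of 0.40 ± 0.35 and 0.19 ± 0.38 SE. PSMB10 turned to -0.08 after removal of the GC trend, to -0.07 without DCRT-KO library 1 and to -0.22 without WT library c. PSMB9 had 0, 0 and 1 reads in DCRT-KO and 5, 6 and 5 in WT, too few for the test, and its pooled ratio of DCRT-KO over WT was 0.177 with a 95% exact interval of 0.00421 to 1.14. PSMB9 made up 0%, 0% and 0.877% of the PSMB6 pair in DCRT-KO and 2.30%, 6.92% and 2.96% in WT. Those shares did not overlap but rest on these few reads. At the depth of DCRT-KO libraries 1 and 2, a count of 0 allows up to 5.68 and 8.04 RPM (reads relative to the library total), while WT averaged 2.48 RPM, so a lower PSMB9 was not detectable there. PSMB9 also shares exon bases with PSMB8 on the other strand. PSMB11, the thymus form, had no read in any library.

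In the base of the cap, 5 of 6 ATPases were higher in DCRT-KO, with a median log2 difference of 0.46. PSMC4 had 29.3, 35.9 and 30.04 FPKM in DCRT-KO and 21.8, 17.2 and 24.98 FPKM in WT, without overlap (0.56 ± 0.19 SE, limma adjusted p = 0.114). PSMC1, PSMC2, PSMC5 and PSMC6 were all below 10 FPKM in every library and overlapped between the groups, at 0.57, 0.09, 0.36 and -0.22. PSMC6, the lowest of the ATPases by log2 difference, turned to 0.19 after removal of the GC trend and to 0.01 without WT library b. PSMC2 turned to -0.04 when the libraries were rescaled without mitochondrially encoded genes, to -0.09 without DCRT-KO library 3 and to -0.04 without WT library b. PSMC1 is uncertain, because 75.8% of its exon bases overlap NRDE2 on the other strand and 13 pseudogenes carry its name. The labels state a strand-specific kit, but the sources used here do not give how reads were counted.

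The non-ATPase subunits of the base were all higher in DCRT-KO (3 of 3, median log2 difference 0.66), and limma called 0 of them. At an unadjusted p below 0.05, 2 were higher (background 1403 of 11445), and voom called 1 higher (background 5.85%). PSMD2, the docking site for shuttle factors, had 80.5, 137 and 83.1 FPKM in DCRT-KO and 55.1, 53.5 and 61.9 FPKM in WT. The groups did not overlap, and library 2 stood well above the rest (0.77 ± 0.22 SE, limma adjusted p = 0.0769, voom adjusted p = 0.0118). PSMD4, a receptor for ubiquitin chains, had 24.4, 28.3 and 23.4 FPKM in DCRT-KO and 15.9, 13.04 and 18.3 FPKM in WT, also without overlap (0.66 ± 0.18, limma adjusted p = 0.0749). PSMD1, the other large scaffold, averaged 35.7 ± 6.75 FPKM in DCRT-KO and 32.6 ± 3.86 FPKM in WT and overlapped (0.12 ± 0.19). Its sign turned when the libraries were rescaled without mitochondrially encoded genes (-0.03) and without DCRT-KO library 2 (-0.02).

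**Figure D4:**
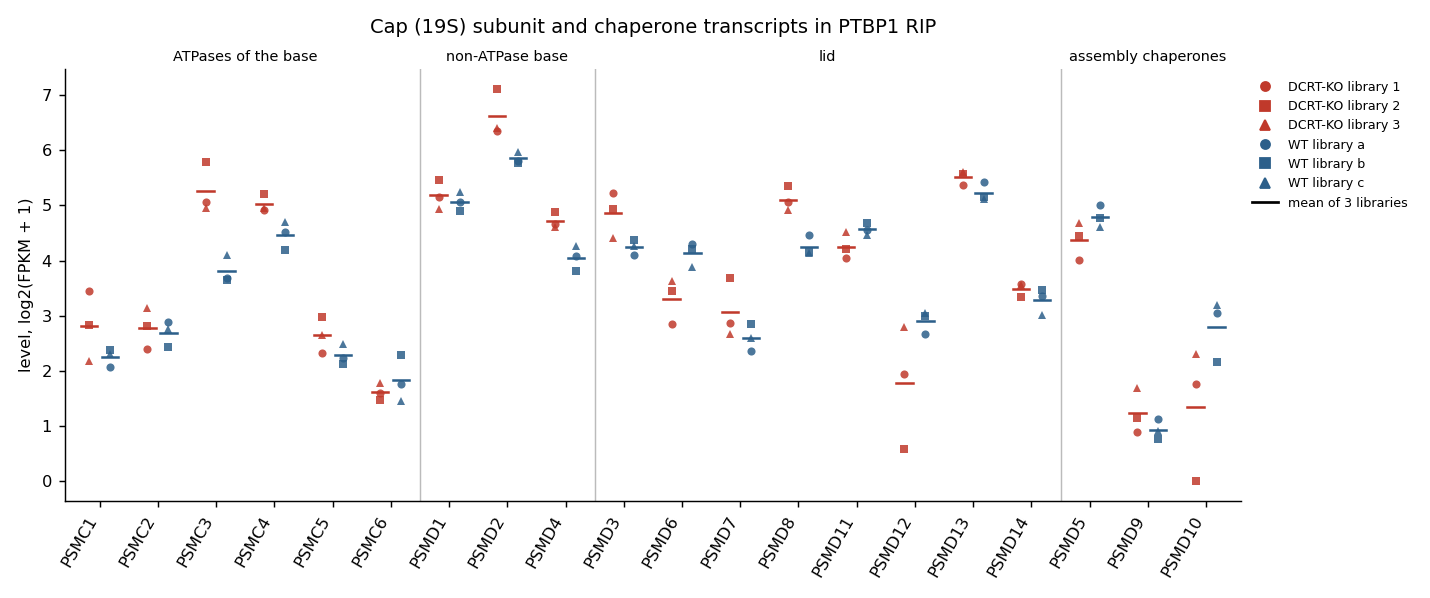
Level of each cap gene, log2(FPKM + 1), in the 3 DCRT-KO and 3 WT libraries, with the mean of each group as a line. PSMC3, PSMC4, PSMD2, PSMD3, PSMD4 and PSMD8 have all DCRT-KO points above the WT points, and PSMD6 has them below. PSMD12 and PSMD10 are spread widely in DCRT-KO.

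The lid held members at both ends, with 5 of 8 higher in DCRT-KO and a median log2 difference of 0.25. Beside PSMD8, PSMD3 had 36.3, 29.7 and 20.2 FPKM in DCRT-KO and 16.2, 19.6 and 18.3 FPKM in WT, which did not overlap, although library 3 was within 1 FPKM of WT library b (0.61 ± 0.22 SE, limma adjusted p = 0.142). PSMD13, the most abundant lid member by deposited FPKM, averaged 44.8 ± 3.79 FPKM in DCRT-KO and 36.6 ± 4.57 FPKM in WT (0.29 ± 0.16, limma adjusted p = 0.316). PSMD14, the enzyme that cuts ubiquitin chains from substrates, averaged 10.2 ± 0.943 FPKM in DCRT-KO and 8.80 ± 1.59 FPKM in WT (0.21 ± 0.21). Its partner PSMD7 stood at 0.48 ± 0.30, and all 3 of these genes overlapped between the groups.

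PSMD6, a lid scaffold subunit, had 6.22, 9.98 and 11.4 FPKM in DCRT-KO and 18.8, 17.4 and 13.7 FPKM in WT. It was the only tested member with every DCRT-KO value below every WT value (log2 difference -0.82 ± 0.24 SE, limma adjusted p = 0.0879, voom adjusted p = 0.0287, and 0.039 without DCRT-KO library 3). PSMD12, another lid scaffold, had 2.83, 0.501 and 5.97 FPKM in DCRT-KO, from 8, 1 and 44 reads, and 5.35, 6.97 and 7.26 FPKM in WT. DCRT-KO libraries 1 and 2 lay below WT and library 3 within it (-1.13 ± 0.48, limma adjusted p = 0.196, and 0.0389 without library 3). PSMD11, which ties the lid to the core and carries the pyrimidine run of 26 bases shown above, was at -0.32 ± 0.18, with overlapping groups. The runs of 24 and 26 bases belong to lid members whose log2 difference was below 0, but PSMA5, with a run of 22 bases, was at 0.61. Next in length came PSMC1 (19 bases, 0.57), PSMB3 (17 bases, 0.25), PSMD5 (17 bases, -0.42), PSMC4 (16 bases, 0.56) and PSMD4 (16 bases, 0.66). The relation of run length to the log2 difference was not tested.

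The assembly chaperones help the base form and are absent from the finished cap. Limma called 0 of the 3, and voom 0. At an unadjusted p below 0.05, 1 was lower (background 1297 of 11445). PSMD5 averaged 20.2 ± 4.84 FPKM in DCRT-KO and 26.9 ± 3.85 FPKM in WT (-0.42 ± 0.21 SE, limma adjusted p = 0.269), with overlap. PSMD10, also known as gankyrin, had the lowest log2 difference of the members tested, -1.45 ± 0.55 (limma adjusted p = 0.155), with 2.38, 0 and 3.94 FPKM in DCRT-KO and 7.27, 3.49 and 8.11 FPKM in WT. It rested on 3, 0 and 13 reads in DCRT-KO and 45, 15 and 40 in WT, and DCRT-KO library 3 overlapped WT library b. Its pooled ratio of DCRT-KO over WT was 0.452, with a 95% exact interval of 0.249 to 0.771 for counting error only. PSMD9 was at 0.31 ± 0.34, near 1 FPKM in both groups.

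By deposited FPKM, the order of levels began with PSMB1, PSMD2, PSMB4, PSMA7 and PSMB5 in DCRT-KO, while PSMB1, PSMB4, PSMD2, PSMA7 and PSMB7 were highest in WT. PSMC3 ranked 8 among the members in DCRT-KO and 21 in WT. FPKM depends on the length used. The deposited lengths were within 10% of the summed exons of all GENCODE 29 transcripts in 36 of 39 members and mostly exceed that of a single transcript, by the most bases for PSMD6 (9123 bases, against 1430 in its transcript). Per kilobase of the transcript, PSMD6 ranked 3 and not 18 in WT. A longer length lowers the FPKM of both groups by the same factor, but the filter at 1 FPKM and the log2(FPKM + 1) difference depend on it. PSMA6, which was below the filter, would average 2.44 FPKM in DCRT-KO and 4.82 FPKM in WT with the length of its transcript.

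The difference between the groups went with GC content. Among the 35 members the log2 difference and the GC content of the transcript had a Spearman rho of 0.68 and a Pearson r of 0.67, and over 11437 tested genes 0.42 and 0.41. These are correlations across genes that share the same 6 libraries, given without a test. All 18 tested members with a GC content above 48.7%, the median of all tested genes, were higher in DCRT-KO, and 6 of the 17 at or below it were. Over all tested genes the shares were 63.3% and 31.1%. PSMC3 and PSMD8 have 56.2% and 57.2% GC, while PSMD12, PSMD10 and PSMA2 have 37.9%, 41.5% and 39.9%. PSMA5, with 37.2% GC and a log2 difference of 0.61, lies off this relation. After the trend of every library with GC and length was taken out, an alternative chosen after seeing the data, PSMC3 (1.30, limma adjusted p = 0.0335) and PSMA5 (0.99, limma adjusted p = 0.0329) were called and PSMD8 was not (0.68, limma adjusted p = 0.0811). In that fit 0.883% of all tested genes were called higher and 0.525% lower, and the medians of core and cap were 0.24 and 0.32. Among the 35 members the corrected log2 difference still went with GC content (Spearman rho 0.43, Pearson r 0.43). The corrected values of the members are therefore not free of that relation.

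**Figure D5:**
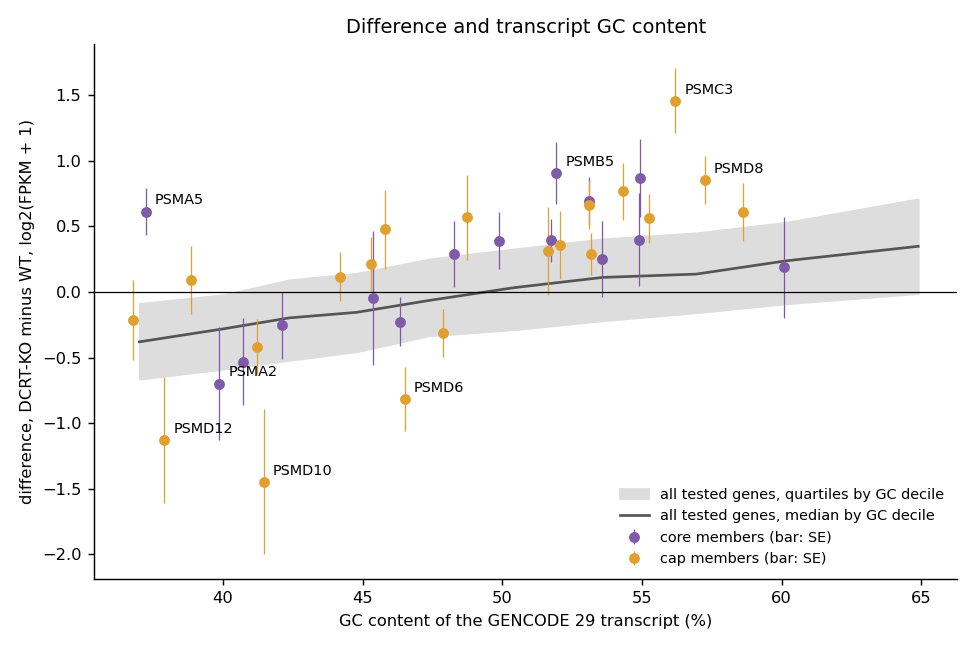
Log2 difference (DCRT-KO minus WT, bars are SE) of the tested core and cap members against the GC content of their GENCODE 29 transcripts, with the median and quartiles of all tested genes by GC decile behind them. Members above 48.7% GC lie above 0, and PSMA5 is high for its GC content.

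The promoters were searched for the core of the antioxidant response element, to which NFE2L1 and NFE2L2 bind, written as TGACNNNGC on either strand in the 250 bases before the start site (RefSeq, GRCh38.p14). It was found in 8 of the 34 members with a promoter entry (23.5%) and in 13.2% of all genes with one. Windows of 29 bases are shown for a core and 3 cap members, with the match in capitals, read on the strand of the gene.
PSMB3: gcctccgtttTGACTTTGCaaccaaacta
PSMC5: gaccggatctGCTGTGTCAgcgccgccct
PSMD3: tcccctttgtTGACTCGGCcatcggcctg
PSMD12: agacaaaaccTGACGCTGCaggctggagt
They lie at chr17:38752627-38752655 (plus strand), chr17:63827654-63827682 (plus strand, with the match on the other strand), chr17:39980760-39980788 (plus strand) and chr17:67366724-67366752 (minus strand). The other matches were in PSMA4, PSMB9, PSMD5 and PSMD9. Of the 7 tested members with the match 4 were higher in DCRT-KO, with a median log2 difference of 0.25, and of the 23 tested without it 15 were, with a median of 0.21. PSMD3 and PSMD12, both with the match, stood at 0.61 and -1.13. The CCAAT box (CCAAT, either strand) was in 50% of the member promoters and 37.0% of all, the GC box (GGGCGG) in 58.8% and 46.2%, and the ETS motif (CCGGAAG) in 23.5% and 10.2%. The promoters of PSMC3 and PSMD8 both hold a CCAAT box. The motifs can overlap one another, and a match is a description of the letters.

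Neighbouring genes are given as a description for both called members and for PSMD10 and PSMD12, which had the lowest log2 differences. Within 1 Mb of PSMC3 (chromosome 11), 9 of 21 tested neighbours were higher in DCRT-KO, with a median log2 difference of -0.01. Within 1 Mb of PSMD8 (chromosome 19), 12 of 17 were, with a median of 0.40. Around PSMD10 (chromosome X) 5 of 8 were lower, with a median of -0.22, and around PSMD12 (chromosome 17) 7 of 10 were lower, with a median of -0.61.

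Genes that work with the proteasome were read from lists. Of 6 ubiquitin genes and E1 enzymes, 2 rose and 0 fell by limma (background 2.35% higher and 1.2% lower). At an unadjusted p below 0.05, 1 was lower (background 1297 of 11445), and voom called 0 lower (background 3.4%). RPS27A, which encodes ubiquitin fused to a ribosomal protein, had 96.1, 101 and 69.0 FPKM in DCRT-KO and 31.0, 29.5 and 45.1 FPKM in WT, without overlap (log2 difference 1.32 ± 0.22 SE, limma adjusted p = 0.0235). With a library left out its limma adjusted p reached 0.124, and at equal depth it was 0.0631. UBB, a polyubiquitin gene, had 12.8, 11.6 and 9.38 FPKM in DCRT-KO and 6.20, 5.14 and 5.08 FPKM in WT (0.92 ± 0.21, limma adjusted p = 0.0482). UBB lost its call with voom (adjusted p = 0.139), at equal depth (limma adjusted p = 0.19), with the GC and length trend removed (0.0833) and with a library left out (up to 0.193). Ubiquitin genes share near-identical repeats, so the division of reads among them is uncertain.

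Of 13 tested proteasome-bound enzymes and shuttles, 1 was higher at an unadjusted p below 0.05 (background 1403 of 11445), and voom called 0 higher (background 5.85%). Limma called 0 higher (background 2.35%) and 1 lower (background 1.2%). It was UBE3C, a ubiquitin ligase that lengthens chains on the proteasome, with 14.99, 13.95 and 21.9 FPKM in DCRT-KO and 35.8, 30.04 and 36.1 FPKM in WT (-0.98 ± 0.20 SE, limma adjusted p = 0.0367, voom adjusted p = 0.00395). Its limma adjusted p was 0.0826 at equal depth, 0.0573 with the GC and length trend removed, and up to 0.162 with a library left out. VCP, the ATPase that extracts substrates from complexes, was the most abundant of that list, at 68.9 ± 16.0 FPKM in DCRT-KO and 46.1 ± 1.06 FPKM in WT (limma adjusted p = 0.114). ECPAS, which binds both core and cap, averaged 28.1 ± 6.54 FPKM in DCRT-KO and 28.3 ± 2.24 FPKM in WT.

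In the remaining 4 lists limma called 0 genes in either direction. Among 6 assembly factors, 2 were higher and 2 lower at an unadjusted p below 0.05 (background 1403 and 1297 of 11445). Voom called 1 higher (background 5.85%), PSMG3, which helps form the alpha ring, at 16.1 ± 5.26 FPKM in DCRT-KO and 7.53 ± 0.862 FPKM in WT (limma adjusted p = 0.0588, voom adjusted p = 0.019). Both lower ones also act in core assembly. PSMG4 averaged 7.22 ± 4.89 FPKM in DCRT-KO and 14.9 ± 2.90 FPKM in WT, with overlap (log2 difference -1.09 ± 0.36 SE, limma adjusted p = 0.113, voom adjusted p = 0.0507). PSMG1 averaged 4.61 ± 2.54 FPKM in DCRT-KO and 8.32 ± 1.10 FPKM in WT, without overlap (-0.83 ± 0.34, limma adjusted p = 0.176). POMP, which guides beta ring assembly, averaged 28.6 ± 7.41 FPKM in DCRT-KO and 17.2 ± 4.96 FPKM in WT (limma adjusted p = 0.124), and PSMG2, a partner of PSMG1, 15.6 ± 5.56 FPKM in DCRT-KO and 19.4 ± 2.12 FPKM in WT. Among 7 other subunits, activators and an inhibitor, 0 genes had an unadjusted p below 0.05 or a voom call. PSME3, a subunit of the nuclear activator, averaged 49.5 ± 14.3 FPKM in DCRT-KO and 64.8 ± 3.65 FPKM in WT, and ADRM1, a ubiquitin receptor, 35.4 ± 11.4 FPKM in DCRT-KO and 24.3 ± 4.20 FPKM in WT.

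Among 6 transcription factors and processing enzymes of the pathway, 1 was higher at an unadjusted p below 0.05 (background 1403 of 11445) and voom called 0. It was MAFK (0.77, limma adjusted p = 0.0755). NFE2L1 averaged 24.5 ± 4.80 FPKM in DCRT-KO and 19.4 ± 2.81 FPKM in WT (0.31 ± 0.20 SE, limma adjusted p = 0.356), and MAFG, a partner of such factors, 13.7 ± 0.858 FPKM in DCRT-KO and 11.3 ± 1.19 FPKM in WT. Of 7 tested genes of interferon response and antigen processing, 1 had a higher mean in DCRT-KO, and 0 had an unadjusted p below 0.05 or a voom call. TAPBP, a chaperone of peptide loading, averaged 37.97 ± 3.97 FPKM in DCRT-KO and 31.2 ± 2.54 FPKM in WT, and B2M, the light chain of class I molecules, 19.3 ± 2.52 FPKM in DCRT-KO and 21.8 ± 2.19 FPKM in WT.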

How the data were processed

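RNA recovered with PTBP1 was measured in 3 DCRT-KO and 3 WT libraries. The authors deposited 1 table of FPKM per gene with lengths and positions. Per the labels' protocols, libraries came from a strand-specific kit and paired-end sequencing, and cutadapt 1.2.1 is named in the submitters' processing notes. Aligner, counting tool and build: not given in the sources used here. Since FPKM is scaled to the library total, genes that rise push others down. The names of the WT columns show the group but repeat a number, and these libraries are called a, b and c in column order. FPKM times length gave whole reads in 100% of values (tolerance 1e-06). Every pair of replicates differed by more than sampling noise (chi-square divided by its degrees of freedom, 2.82 to 5.88). A count of 3 reads, the floor, is 1.16 RPM in the deepest and 8.04 RPM in the shallowest library; floors and intervals cover counting error only, since reads are not independent molecules.

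The 11445 genes whose mean reached 1 FPKM were tested two-sided with limma 3.58.1 (R 4.3.3), using log2(FPKM + 1) and a variance trend. Adjustment was by Benjamini-Hochberg over all of them, with a threshold of 0.05. The scale understates the change of low genes. The fit was tested on simulated data. The simulation gave every gene the same extra spread between libraries and held no GC trend. It therefore cannot show how the fit handles the GC trend of these libraries. Voom, part of limma, was run on the whole reads. In an exact permutation test 3 libraries against 3 cannot go below p = 0.1, so no single value was tested that way. The members and gene lists were chosen with earlier results of these data known. The rule for named genes took, in each subunit class, those called, both most abundant genes and the largest difference in each direction, with the catalytic, inducible and tissue-specific subunits, and from each list those called and both most abundant. A gene that this rule takes is not reported here. Other members are given by their values, and PSMG1, PSMG3, PSMG4, MAFK, TTN, KRT8 and KRT18 were named after their values were seen. Transcript features came from GENCODE 29 and promoters from RefSeq. Python 3.11.15 and pandas 2.3.3 prepared the table.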

Additional observations from a re-analysis of the deposited data

How the results depend on the processing

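No paired analysis was possible because the WT columns repeat a replicate number, so the planned fit with a replicate block was not run. The core to cap ratio and the median of the core moved by less than the spread between libraries in every alternative run, and the cap median in all but a filter of 5 FPKM (0.48). With each library left out, the core median was 0.18 to 0.46, the cap median 0.23 to 0.35, and the difference in the core to cap ratio -0.08 to 0.04. Proteasome genes called higher numbered 2, and 1 with a pseudocount of 0.1 or rescaling without mitochondrially encoded genes. They numbered 0 with no filter or with limma without a variance trend, and 0.5 (mean of 20 draws) in libraries thinned to 373354 reads. They numbered 6 with voom, 7 with voom and sample quality weights, and 0 to 7 with a library left out. Proteasome genes called lower numbered 0, and 1 with rescaling without mitochondrially encoded genes, voom, or voom with quality weights. With a library left out they numbered 0 to 2. Over all genes, 269 were called higher and 137 lower. These counts were 72 and 50 with no filter, 70 and 64 without a variance trend, 669 and 389 with voom, 820 and 483 with quality weights, 43.5 and 17.5 in thinned libraries, 101 and 60 with the GC and length trend removed, and 0 to 707 and 0 to 821 with a library left out. Genes called lower were 90 with a pseudocount of 0.1, 278 with quantile normalization (281 higher) and 328 with rescaling (186 higher). The causes were not tested. Of 35 named members 24 stayed on their side of the threshold in every alternative that gave a value (17 alternatives for 8 members, 18 for the rest), 6 changed sign in some, and 0 called members changed sign. PSMC3 lost its call in 7 alternatives and PSMD8 in 11, with adjusted p up to 0.126 and 0.181. Depth limits PSMA1, PSMA2, PSMA6, PSMB9, PSMD10 and PSMD12, which had at most 3 reads in some DCRT-KO library.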
